A study of Homo sapiens with 4 samples.

Results

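The kinesin motor genes were followed in the pancreatic cancer line PANC-1 and in PZT-2, a clone of it with knockdown of the histone variant H2A.Z. Members were all genes whose symbol in the deposited result table begins with KIF and a number and that have a transcript in the deposited abundance table. Of 43 such symbols, 36 had abundances, out of 15220 genes in the whole table. Of these members, 33 are kinesin motors, grouped by known role into 11 mitotic, 12 transport and 10 other kinesins. The remaining 3 match by name only: KIF1BP, a protein that binds kinesins, and the antisense RNAs KIF9-AS1 and KIF25-AS1. No member was made, for want of an abundance under these symbols, of KIF2B, KIF4B, KIF5C, KIF19, KIF25, KIF27 and KIF26B-AS1.

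RNA-seq was performed on 4 libraries, 2 of PANC-1 and 2 of PZT-2. PANC-1 is an established human pancreatic ductal adenocarcinoma line and was left untransduced. PZT-2 is a single puromycin-selected clone of PANC-1 that stably carries lentiviral shRNAs, driven by the U6 promoter, against H2AFZ (coding for H2A.Z.1) and H2AFV (coding for both isoforms of H2A.Z.2), so knockdown, transduction, selection and clonal origin cannot be told apart in these 4 libraries. The cells that received a scrambled shRNA are not analysed here.

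The recovered totals were 12861441 and 15717548 estimated counts in PANC-1 and 13955484 and 14175642 in PZT-2. H2AFZ was lower in both PZT-2 libraries, with 2212 and 2259 normalized counts against 6389 and 6034 in PANC-1 (log2 fold change −1.47). H2AFV was lower by less, with 2590 and 2717 against 3344 and 3452 (log2 fold change −0.36). All 7 markers of ductal carcinoma cells had values, and KRT8, KRT18, KRT19 and CDH1 were called lower, beside 13.7% of all genes tested. CDH1 had raw counts of 103 and 164 in PANC-1 and 0 and 19 in PZT-2. With DESeq2 CDH1 was not called (adjusted p = 0.262). For markers of other cell types, 3 of 12 had values: COL1A1, which was called lower, PECAM1 and SYT1, while the other 9, among them the leucocyte marker PTPRC and the fibroblast marker DCN, were not analysed here.

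Kinesins are motor proteins that hydrolyse ATP to walk along microtubules or to take microtubule ends apart. Mitotic kinesins build the spindle, position and segregate chromosomes and drive cytokinesis, and most of their genes are transcribed mainly in the G2 and M phases of dividing cells. Transport kinesins carry vesicles, mitochondria and other cargo along microtubules, and several of them are best known from neurons. Genes of G2 and M phase often carry 2 short promoter elements, the cell cycle genes homology region (TTTGAA), which the MuvB complexes bind, and the CCAAT box, which NF-Y binds.

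The promoters of some kinesins are shown to give the sequence feature that the grouping by role did not use. Each line gives the 80 bases just upstream of the transcription start, 5′ to 3′ on the strand of the gene, from RefSeq on GRCh38.p14. Capitals mark TTTGAA or CCAAT on either strand, the opposite strand being read as TTCAAA or ATTGG. The windows lie at chrX:70290024-70290103 (plus strand) for KIF4A, at chr10:92593050-92593129 (plus) for KIF11, at chr11:28108157-28108236 (minus) for KIF18A, at chr15:69414269-69414348 (plus) for KIF23, at chr3:44761714-44761793 (plus) for KIF15, at chr17:4997870-4997949 (plus) for KIF1C and at chr5:132737547-132737626 (minus) for KIF3A.
KIF4A: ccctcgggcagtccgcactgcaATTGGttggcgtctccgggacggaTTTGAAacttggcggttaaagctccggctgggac
KIF11: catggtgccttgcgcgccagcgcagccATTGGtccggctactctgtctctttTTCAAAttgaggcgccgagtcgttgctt
KIF18A: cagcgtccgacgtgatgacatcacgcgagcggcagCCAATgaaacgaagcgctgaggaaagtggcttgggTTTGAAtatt
KIF23: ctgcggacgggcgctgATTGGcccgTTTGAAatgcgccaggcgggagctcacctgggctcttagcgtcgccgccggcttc
KIF15: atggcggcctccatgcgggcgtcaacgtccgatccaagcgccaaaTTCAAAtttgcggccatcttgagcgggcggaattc
KIF1C: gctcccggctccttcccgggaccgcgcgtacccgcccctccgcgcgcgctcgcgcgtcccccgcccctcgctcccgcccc
KIF3A: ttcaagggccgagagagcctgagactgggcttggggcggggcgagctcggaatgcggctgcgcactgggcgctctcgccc
The first 5 are mitotic kinesins with TTTGAA upstream of the start, and KIF1C and KIF3A are transport kinesins whose 80 bases hold neither motif. These examples do not stand for all members of their groups. In the mitotic KIF14, KIF18B and KIF20B, TTTGAA lies after the start. The transport kinesins KIF3B and KIF5B hold CCAAT within 80 bases upstream.

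Over a longer window, from 250 bases before to 50 after the start, 29 of the 33 motors matched an entry, those without one being KIF5A, KIF13B, KIF21B and KIF26B. TTTGAA was found in 8 of 11 mitotic, 1 of 10 transport and 0 of 8 other kinesins, beside 13.0% of the 11334 tested genes that have a window and 15.2% of all 35116 windows of that length. CCAAT was found in 9 of 11 mitotic, 3 of 10 transport and 3 of 8 other kinesins, beside 42.0% of tested genes and 34.6% of all windows. Both motifs stood together in 7 of 11 mitotic kinesins and in KIF5B as the only transport kinesin, beside 5.36% of tested genes. No match of TTTGAA overlapped a match of CCAAT in a kinesin window. The mitotic kinesins without TTTGAA in this window were KIF2C, KIF20A and KIF22. These are matches of letters and were not tested for binding.

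Of the 33 motors, 12 were called in PZT-2 against PANC-1 by edgeR's quasi-likelihood test (Benjamini-Hochberg adjusted over all 15100 genes tested, threshold 0.05), 5 higher and 7 lower. Over all genes tested, 28.4% were called, 14.7% higher and 13.7% lower. The 33 motors had a median log2 fold change of −0.13, beside 0.000977 over all genes. By role, mitotic kinesins were called in 1 direction, 0 higher and 3 lower. None of them was called higher by edgeR at an unadjusted p under 0.05 either, nor in any of 16 alternative settings with DESeq2 and limma included. Transport kinesins were called in both directions, 4 higher and 3 lower, and other kinesins were called 1 higher and 1 lower. Of the 3 members that are no motors, 0 were called by edgeR, 0 at an unadjusted p under 0.05 and 0 by DESeq2. All 36 members passed the filter of at least 5 counts in at least 2 libraries, KIF21B only through PZT-2. For a value taken by itself, 2 against 2 libraries allow no exact permutation p under 0.33 (two-sided), so per-gene calls rest on the spread shared across genes. The study calls the libraries of a line biological replicates, and neither it nor the labels say whether they came from separate cultures, so the p-values measure the spread between these libraries, which may be partly technical.

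**Figure D1:**
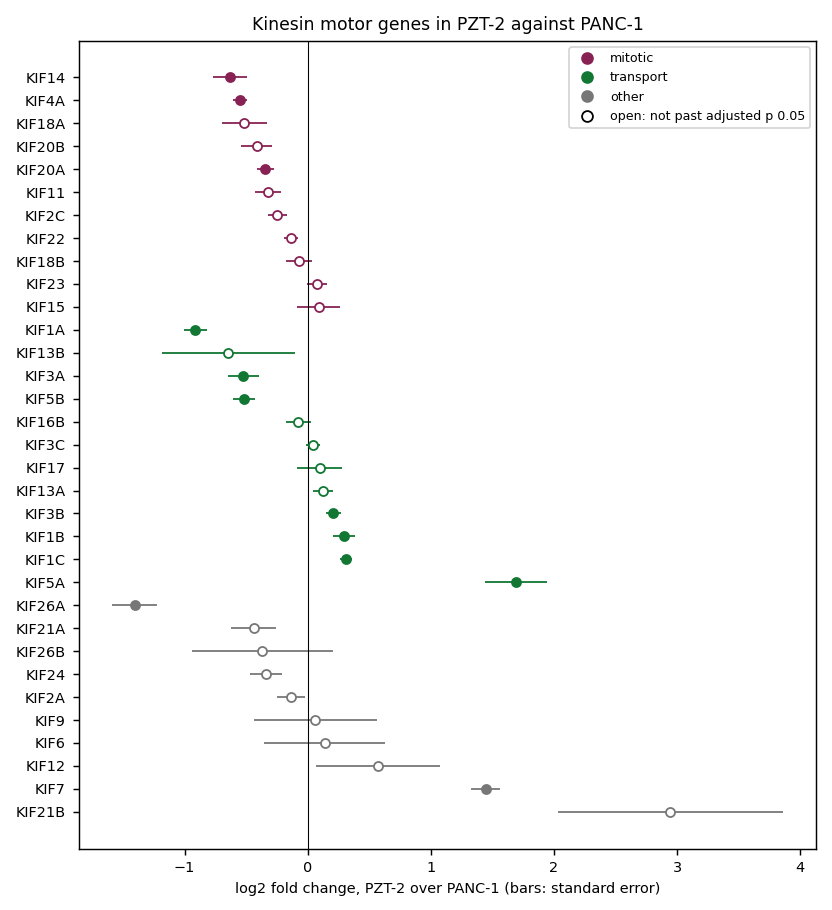
Log2 fold change of each kinesin motor gene, PZT-2 over PANC-1, with its standard error (horizontal axis), for the mitotic, transport and other kinesins. The mitotic genes lie between −0.63 and 0.09, while the transport genes reach from −0.92 to 1.69.

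The mitotic kinesins leaned to lower values in PZT-2. Of the 11, 9 had a negative log2 fold change, and their median was −0.32. Both PZT-2 libraries were below both PANC-1 libraries for 8 of them and above for 0, with 3 overlapping. Over all genes, the lines did not overlap for 66.2%, with both PZT-2 libraries below for 32.9% and above for 33.3%. The called genes were KIF4A, KIF14 and KIF20A. In bulk RNA, a changed share of cells in G2 and M phase and less RNA per such cell cannot be told apart. By BrdU and propidium iodide staining after serum starvation, the study reports most H2A.Z-depleted cells arrested in G2 and M phase. The cell cycle phases in the cultures of these 4 libraries are not given, and their part in these values was not tested.

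KIF4A, a chromokinesin that binds chromosome arms and shortens the overlap of microtubules in the spindle midzone, had 2337 and 2417 normalized counts in PANC-1 and 1614 and 1638 in PZT-2. The 2 groups did not overlap, and the spread within each line was small (2377 ± 56.2 against 1626 ± 17.0, SD, n = 2). The log2 fold change was −0.55 ± 0.0570 (SE), with an adjusted p of 0.00132. KIF4A lies on chromosome X, where the median log2 fold change of 471 genes was −0.29, and relative to that median its change was −0.26. The part of the chromosome in the result was not tested.

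KIF14, which acts at the midbody in cytokinesis, had 237 and 250.3 normalized counts in PANC-1 and 174 and 141 in PZT-2. Its groups did not overlap, but the PZT-2 libraries differed more from each other than the PANC-1 libraries. The log2 fold change was −0.63 ± 0.137 (SE, adjusted p = 0.0168), and without PZT-2 replicate 2 it was −0.49 (adjusted p = 0.105). KIF20A, a kinesin of the central spindle that brings the chromosomal passenger complex there, had 1661 and 1717 against 1275 and 1384. Both PZT-2 libraries were lower, by a log2 fold change of −0.35 ± 0.0670 (SE, adjusted p = 0.0113), and without PZT-2 replicate 1 it was −0.29 (adjusted p = 0.0989).

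A further 5 mitotic kinesins had both PZT-2 libraries below both PANC-1 libraries without passing the test. KIF18A, a plus-end motor that dampens chromosome movement, had 94.5 and 118 normalized counts in PANC-1 and 72.5 and 77.1 in PZT-2 (log2 fold change −0.51 ± 0.182 SE, adjusted p = 0.0807). KIF20B, a relative of KIF20A in cytokinesis, had 295 and 326 against 256 and 211 (−0.42 ± 0.129 SE, adjusted p = 0.0545). KIF11, the tetrameric motor that pushes spindle poles apart and is the target of monastrol, had 900.1 and 1103 against 782 and 827 (−0.32 ± 0.106 SE, adjusted p = 0.0666). For KIF18A and KIF11, and likewise for KIF2C, the gap between the lines was smaller than the difference between the PANC-1 replicates. For KIF20B the gap was smaller than the difference between the PZT-2 replicates. KIF2C, a microtubule depolymerase at centromeres, had 2631 and 2299 against 2055 and 2095 (−0.25 ± 0.0769 SE, adjusted p = 0.0556). KIF22, a chromokinesin, had 2178 and 2221 against 1974 and 2038 (−0.13 ± 0.0565 SE, adjusted p = 0.129). In the 16 alternative settings, KIF2C was called lower in 4, KIF11 and KIF20B in 3 each, KIF18A in 1 and KIF22 in 0. Without PANC-1 replicate 1, KIF11, KIF18A and KIF20B passed the test (adjusted p = 0.00395, 0.0406 and 0.0359), which made 6 mitotic kinesins called lower, and without PANC-1 replicate 2, KIF2C passed (adjusted p = 0.00262).

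The libraries overlapped for the other 3 mitotic kinesins. KIF18B, a partner of KIF2C at microtubule ends, had 531 and 613 normalized counts in PANC-1 and 575 and 516 in PZT-2 (−0.07, adjusted p = 0.651). KIF23, the kinesin of the centralspindlin complex, had 1403 and 1615 against 1550.1 and 1629.7 (0.07, adjusted p = 0.556). KIF15, which works beside KIF11 in keeping the spindle bipolar, had 178 and 255 against 238 and 225 (0.09, adjusted p = 0.759). For all 3 genes the PANC-1 libraries differed from each other more than the means of the lines did. KIF15 lies on chromosome 3, where the median over 833 genes was 0.43, and KIF23 on chromosome 15, where the median over 528 genes was 0.24. In the longer promoter window above, the called KIF4A and KIF14 hold TTTGAA and the called KIF20A does not, while KIF15, KIF18B and KIF23 hold it and were not called.

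On a scale that allows genes to be compared (TPM, a transcript abundance that divides counts by length), the mitotic kinesins made up the larger part of kinesin RNA. KIF22 was the highest of all motors with a mean of 134 TPM over the 4 libraries, and KIF2C followed with 113 TPM in PANC-1 and 98.6 in PZT-2. The most abundant transport kinesin was KIF1C, with a mean of 55.3 TPM. KIF23, KIF4A and KIF20A stood close together in PANC-1, at 57.2, 68.3 and 63.6 TPM, and in PZT-2 at 62.5, 48.5 and 52.0 TPM, so KIF4A was the highest of these 3 in PANC-1 and the lowest in PZT-2. Medians over genes were 23.2 TPM for mitotic, 18.8 for transport and 2.49 for other kinesins.

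Summed over the 11 mitotic kinesins, the level was 489 and 515 TPM in PANC-1 and 442 and 452 TPM in PZT-2, a ratio of 0.890 between the means. The groups did not overlap. Summed over the 12 transport kinesins, it was 247 and 255 TPM in PANC-1 and 256 and 247 TPM in PZT-2, with a ratio of 1.00 and overlapping libraries. The ratio of mitotic to transport sums was 1.97 and 2.02 in PANC-1 and 1.73 and 1.83 in PZT-2, lower in both PZT-2 libraries. Mitotic genes held 63.2% of the summed motor level in PANC-1 and 60.3% in PZT-2. Each sum is dominated by its few most abundant genes, and it has no test beyond the exact permutation limit given above. TPM did not carry the library normalization of the tests, so sums and fitted log2 fold changes are on unlike scales. For KIF16B, mean TPM was 7.99 in PANC-1 and 8.02 in PZT-2, beside a fitted log2 fold change of −0.08.

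The transport kinesins, whose summed TPM was about level, held genes that rose and genes that fell. Of the 12, 4 were called higher (KIF5A, KIF1C, KIF1B and KIF3B) and 3 lower (KIF1A, KIF5B and KIF3A). Both PZT-2 libraries were above both PANC-1 libraries for 6 and below for 3. Over all genes tested, both PZT-2 libraries were above for 33.3% and below for 32.9%, and 14.7% were called higher and 13.7% lower. The median log2 fold change was 0.07. Members of the same subfamily differed in direction, as KIF1A against KIF1B and KIF1C, KIF3A against KIF3B, and KIF5B against KIF5A.

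Within the kinesin-3 subfamily, KIF1A, the neuronal carrier of synaptic vesicle precursors, was the transport kinesin with the largest fall. It had 3612 and 3003 normalized counts in PANC-1 and 1772 and 1733 in PZT-2. The gap between the lines exceeded the difference between the PANC-1 replicates (3307 ± 431 against 1752 ± 27.6, SD, n = 2). The log2 fold change was −0.92 ± 0.0932 (SE, adjusted p = 0.00122). KIF1C, which carries dense core vesicles and integrins, had 2986 and 3040.1 against 3721 and 3749.8. The replicates of each line were close together, and the log2 fold change was 0.31 ± 0.0517 (SE, adjusted p = 0.00664). It was 0.32 without PZT-2 replicate 1 (adjusted p = 0.0603) and 0.30 without PZT-2 replicate 2 (adjusted p = 0.0713). KIF1B, which moves mitochondria and synaptic vesicle precursors, had 986 and 1046 against 1338 and 1154 (0.29 ± 0.0875 SE, adjusted p = 0.0484). For KIF1B the gap between the lines was smaller than the difference between the PZT-2 replicates. Leaving out PANC-1 replicate 1 (adjusted p = 0.0912) or, of the PZT-2 libraries, the first (0.250) or the second (0.0524) ended its call.

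Kinesin-1 motors carry cargo on heavy chains coded by KIF5A, KIF5B and KIF5C. KIF5B, the heavy chain found in most tissues, had 1522 and 1692 normalized counts in PANC-1 and 1192 and 1056 in PZT-2. Both PZT-2 libraries were lower, by a log2 fold change of −0.52 ± 0.0863 (SE, adjusted p = 0.00665), which became −0.43 without PZT-2 replicate 2 (adjusted p = 0.0588). KIF5A, a heavy chain mainly of neurons, had 21.4 and 30.7 against 87.6 and 83.1 normalized counts. It was higher in both PZT-2 libraries, with a log2 fold change of 1.69 ± 0.250 (SE, adjusted p = 0.00437), and stayed a minor form. As a share of KIF5A plus KIF5B in TPM, KIF5A was 1.399% and 1.80% in PANC-1 and 6.91% and 7.36% in PZT-2.

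The heterodimeric kinesin-2 motors pair KIF3A with KIF3B or KIF3C and serve intraflagellar transport in cilia and other cargo. KIF3A had 172 and 189.8 normalized counts in PANC-1 and 124 and 129 in PZT-2, lower in both PZT-2 libraries (−0.52 ± 0.128 SE, adjusted p = 0.0258). KIF3B had 1911 and 2017 against 2319 and 2215, higher in both (0.21 ± 0.0615 SE, adjusted p = 0.0481). Per length, KIF3B stood 11.3 and 10.9 times above KIF3A in PANC-1 and 19.2 and 17.6 times above it in PZT-2. KIF3C had 1277 and 1263 against 1304 and 1308 (0.04, adjusted p = 0.657). The call of KIF3A ended without PANC-1 replicate 2 (adjusted p = 0.0733) and without either PZT-2 library (0.128 for the first left out and 0.112 for the second). The call of KIF3B ended without PANC-1 replicate 1 (adjusted p = 0.0816) and without either PZT-2 library (0.264 and 0.154). Counts of transport kinesins called higher fell to 1 without either PZT-2 library and to 2 without PANC-1 replicate 1, and of those called lower to 1 without PZT-2 replicate 2.

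The other 4 transport kinesins were not called. KIF13A, a carrier of endosomes and melanosome cargo, had 863 and 910.0 normalized counts in PANC-1 and 1017 and 916 in PZT-2 (0.12, adjusted p = 0.296). KIF17, a homodimeric kinesin-2 of cilia and dendrites, had 94.5 and 79.5 against 84.6 and 101 (0.10, adjusted p = 0.745). KIF16B, a carrier of early endosomes, had 303 and 332 against 293 and 309.5 (−0.08, adjusted p = 0.617). KIF13B was near the filter, with raw counts of 20 and 12 against 8 and 13 (−0.64 ± 0.537 SE, adjusted p = 0.423). Libraries overlapped for KIF17, KIF16B and KIF13B, and the gap of KIF13A was smaller than the difference between its PZT-2 replicates.

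**Figure D2:**
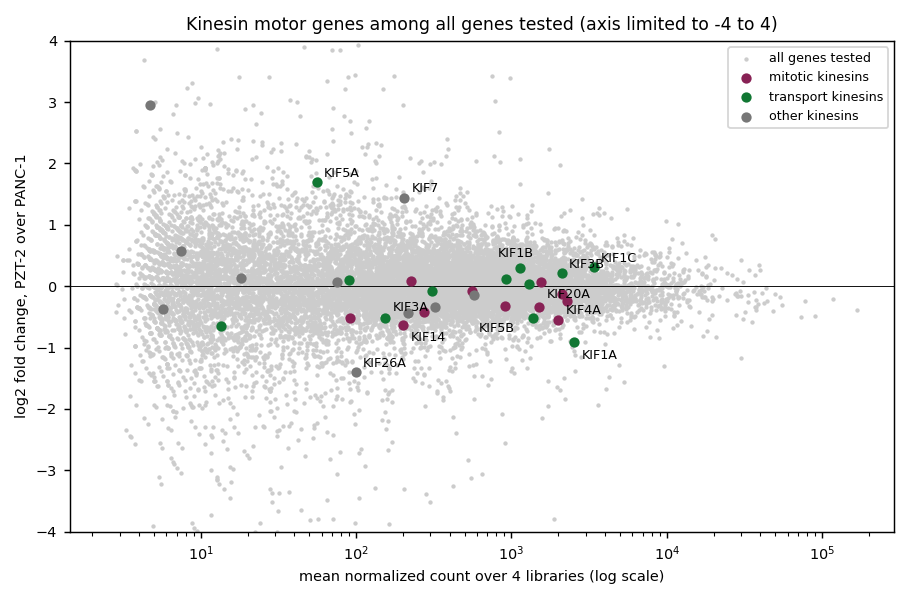
Log2 fold change of PZT-2 over PANC-1 (vertical axis, limited to the range −4 to 4) against the mean normalized count over the 4 libraries (log scale) for all genes tested in grey and kinesin motors in colour. The 12 called kinesins are named and include abundant genes such as KIF1A and KIF1C and a gene of low counts, KIF5A.

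Among the 10 other kinesins, 2 were called, in opposite directions. KIF7, a kinesin of the tip of the primary cilium that regulates GLI factors in Hedgehog signalling, had 107 and 112 normalized counts in PANC-1 and 313 and 284 in PZT-2. Its level was 2.72-fold higher in PZT-2 (log2 fold change 1.44 ± 0.121 SE, adjusted p = 6.86e-04). KIF26A, a kinesin without ATPase activity that binds GRB2, had 149.7 and 139 against 47.3 and 61.3. Its level was 2.65-fold lower (−1.41 ± 0.183 SE, adjusted p = 0.00278). KIF7 lies on chromosome 15, and relative to the median of its genes its change was 1.21.

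KIF21B, a motor that slows microtubule growth, had raw counts of 0 and 2 in PANC-1 and 7 and 10 in PZT-2, and passed the filter only through PZT-2 (adjusted p = 0.0550). At these counts its fitted fold change is not a bound and is not read. Without PANC-1 replicate 2 its PANC-1 side is a single library at 0 counts, so that fit is not read. KIF21A and KIF24 passed the test as lower without PANC-1 replicate 1 (adjusted p = 0.0134 and 0.0425). The remaining 5 members of this group were not called and had log2 fold changes between −0.37 and 0.57, of which KIF12, KIF6 and KIF26B rest on at most 25 raw counts in every library. KIF9, which works in motile cilia, had 60.8 and 86.8 against 119 and 36.6 normalized counts, with more spread between the PZT-2 replicates than between the lines. Of the members that are no motors, KIF1BP had a log2 fold change of 0.05, KIF9-AS1 of 0.45 and KIF25-AS1 of 0.67, the last at 12 raw counts or fewer in every library.

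Each of the 12 calls was refitted with single libraries left out. KIF1A, KIF4A, KIF5A, KIF7 and KIF26A were called in all 16 alternative settings, the 4 with a library left out included. Their log2 fold changes with a library left out ran from −1.05 to −0.78 for KIF1A, from −0.58 to −0.53 for KIF4A, from 1.47 to 1.98 for KIF5A, from 1.37 to 1.51 for KIF7 and from −1.61 to −1.23 for KIF26A. KIF20A and KIF5B were called in 15 of 16 settings, KIF1C in 14, KIF14 in 12, KIF3A in 9, KIF1B in 6 and KIF3B in 4.

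**Figure D3:**
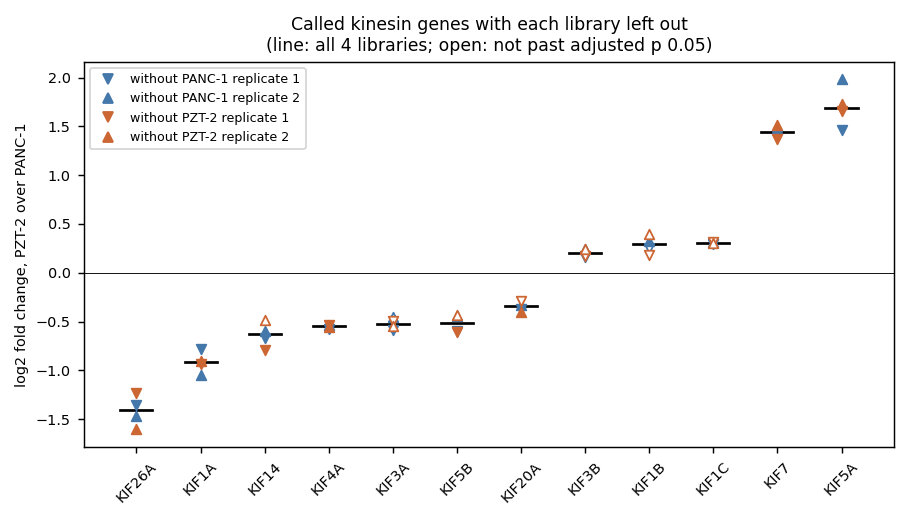
Log2 fold change of PZT-2 over PANC-1 for the 12 called kinesin genes with all 4 libraries (line) and with each library left out (triangles, open where the adjusted p is not past 0.05). No gene changed sign, and KIF1A, KIF4A, KIF5A, KIF7 and KIF26A kept filled symbols throughout.

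The authors' abundances are per transcript, and 19 of the motor genes have 1 transcript while 14 have several. Of the 56 motor transcripts tested by themselves, 0 were called by edgeR, with 15 at an unadjusted p under 0.05, beside 0.148% called over all transcripts. DESeq2's Wald test called 12 of them, 5 higher and 7 lower, beside 14.5% of all transcripts. The transcript NM_004321, which held 93.1% of the KIF1A counts in PANC-1 and 87.8% in PZT-2, had a log2 fold change of −1.01. For KIF3A the estimate moved between transcripts within a line, with NM_007054 at 153 and 181 counts in PANC-1 and at 0.0269 and 98.5 in PZT-2, and NM_001300792 at about 0 and 28.9 and at 123 and 31.4. The 2 PZT-2 libraries put most KIF3A reads on different transcripts, so single transcripts of this gene were not read. Of the 37 transcripts of genes with several, 11 were estimated at under 0.5 counts in at least 1 library.

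Relatives outside the symbol pattern and partners of kinesins were counted in the same fit, in which 28.4% of all genes tested were called. Of 5 relatives, CENPE was called lower and STARD9 higher. CENPE, the kinetochore kinesin that brings chromosomes to the spindle equator, had 268 and 309 normalized counts in PANC-1 and 207 and 170.1 in PZT-2 (−0.62 ± 0.140 SE, adjusted p = 0.0200). STARD9, a kinesin of the centrosome in mitosis, had 297 and 304 against 446 and 362 (0.43 ± 0.122 SE, adjusted p = 0.0422). The call of CENPE ended without PZT-2 replicate 2 (adjusted p = 0.117), and that of STARD9 without PANC-1 replicate 1 (0.0652), PANC-1 replicate 2 (0.0620) or PZT-2 replicate 1 (0.223). In the 16 alternative settings CENPE was called in 13 and STARD9 in 7. With DESeq2 STARD9 was not called (adjusted p = 0.106). For STARD9 the gap between the lines was smaller than the difference between the PZT-2 replicates. STARD9 lies on chromosome 15, whose median was 0.24. KIFC1, KIFC2 and KIFC3 were not called.

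Of 12 partners of mitotic kinesins, 6 were called lower and 0 higher by edgeR, beside 13.7% lower and 14.7% higher over all genes tested. The highest log2 fold change was 0.00641, and the median was −0.22. Those called were TPX2, RACGAP1, BIRC5, CDCA8, NUMA1 and HMMR. HMMR, a spindle pole protein, had 471 and 568 normalized counts in PANC-1 and 389 and 369.8 in PZT-2 (−0.46 ± 0.112 SE, adjusted p = 0.0249). With its most abundant transcript alone, HMMR turned to 0.21 (adjusted p = 0.833), and its call also ended without PANC-1 replicate 2 (0.0587) and without either PZT-2 library (0.0866 and 0.127), which left it called in 10 of 16 settings. RACGAP1, the partner of KIF23 in centralspindlin, was called lower while KIF23 was not. TPX2 was called in all 16 settings, BIRC5 and CDCA8 in 15, RACGAP1 in 11 and NUMA1 in 8. Among the 8 of these partners with a promoter window, 6 held TTTGAA and 8 held CCAAT.

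Of 15 light chains, adaptors and regulators of transport kinesins, 4 were called higher (KLC1, TRAK1, RHOT2 and SPAG9) and 1 lower (KLC4), with a median of 0.20. That is 33.3% called, near the 28.4% of all genes tested. RHOT2 and SPAG9 were each called in 9 of 16 settings. TRAK1, the adaptor that links kinesin-1 to mitochondria, had 558 and 546 normalized counts in PANC-1 and 807 and 826 in PZT-2 (0.57 ± 0.0699 SE, adjusted p = 0.00235). KLC1, a kinesin-1 light chain, had 1024 and 1037 against 1398 and 1415 (0.45 ± 0.0589 SE, adjusted p = 0.00286). KLC4, another light chain, had 201 and 214 against 156 and 149 (−0.45 ± 0.117 SE, adjusted p = 0.0322), a call that ended without PANC-1 replicate 2 (0.0837) and without either PZT-2 library (0.117 and 0.168). RHOT2 turned to −0.16 with its most abundant transcript alone (adjusted p = 0.474) and to −0.00801 with table symbols only (0.975), neither of them a call. TRAK1 lies on chromosome 3, where the median was 0.43. Of the relatives and partners, 5 were called higher in all, against 2 without PZT-2 replicate 1 and 3 without either PZT-2 replicate 2 or PANC-1 replicate 1, and without either PZT-2 library 3 were called lower in place of 8.

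Markers of proliferating cells were counted beside the mitotic kinesins. Of 13, 6 were called lower (TOP2A, CCNB1, CCNB2, UBE2C, CDC20 and MCM5) and MCM2 was called higher, with a median log2 fold change of −0.27 beside −0.32 for mitotic kinesins. Over all genes tested, 13.7% were called lower and 14.7% higher. MCM2 lies on chromosome 3, and its log2 fold change of 0.33 was −0.10 relative to the median of that chromosome. MKI67 was not called (−0.28, adjusted p = 0.0862). The part of proliferation in the mitotic kinesin values was not tested. Without PZT-2 replicate 1 or without PZT-2 replicate 2, 3 of the markers were called lower, and MCM2 lost its call without PZT-2 replicate 2.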

How the data were processed

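Members, gene lists and tests were chosen with earlier results of these data known. Paired reads of stranded mRNA libraries were trimmed by the authors (Trim Galore 0.4.1) and assigned to RefSeq transcripts by kallisto 0.43.0, and the 2 lines were compared by sleuth 0.29.0; hg19 is named in the submitters' processing notes. The deposited table holds estimated counts (expected counts) per transcript and library. Its TPM column is a score here, because the authors scaled it per library, and was not used; TPM was remade from counts and effective lengths. The authors' own p-values, q-values and effects of sleuth were not used.

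Estimated counts had been multiplied by a factor per library (1.16, 0.935, 1.03 and 1.01 for PANC-1 replicates 1 and 2 and PZT-2 replicates 1 and 2), which was undone, raising the share of low values that were whole within 0.01 from at most 2.71% to at least 49.0%. Counts were summed per gene and rounded. Of 31077 transcripts, 27049 were named by the authors' table and 3925 by RefSeq accession, and 103 without a name (0.0466% of counts) were left out. Testing took genes that had 5 counts or more in 2 or more libraries and was run in R 4.3.3 with edgeR 4.0.16 (TMM, quasi-likelihood test, no covariate), adjusted by Benjamini-Hochberg over 15100 genes, threshold 0.05. Normalized counts are counts divided by TMM-scaled library size and brought to the mean library size. Alternatives used DESeq2 1.42.0 and limma 3.58.1. The script was tested on simulated data. Libraries of a line differed by more than sampling noise (chi-square per degree of freedom 5.91 in PANC-1 and 3.39 in PZT-2). Values in every library are given for called members, for all mitotic and transport kinesins and for called relatives and partners, for at most 6 of the last by size of change; KIF9 and KIF21B were added after their values were seen. An item of the list of transport partners is not reported here and enters none of its counts. Groups of kinesins are described by counts and medians without a test of the group.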

Additional observations from a re-analysis of the deposited data

How the results depend on the processing

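Over 25 kinesin genes, 400 values under alternative settings were made (16 a gene, with 1 fewer for KIF13B, which the stricter filter removed, and 1 more for KIF4A, relative to its chromosome), of which 341 kept direction and side of the threshold. Motors called higher fell from 5 to 3, and transport kinesins from 4 to 2, with DESeq2, with limma-trend on log2(TPM + 1) or log2(TPM + 0.1), with counts as deposited, with table symbols only and with the most abundant transcript alone. With DESeq2 4 mitotic kinesins were called lower. With edgeR's version 4 dispersion estimate 5 mitotic kinesins were called lower and 2 other kinesins higher. These 2 were KIF7 and KIF21B, of which KIF21B passed the filter only through PZT-2 and is not read. With at least 10 counts in all 4 libraries 6 mitotic kinesins were called lower. Proliferation markers called higher became 2 with DESeq2, the version 4 estimate or the stricter filter. Relatives and partners called higher fell from 5 to 3 with DESeq2, limma-trend on either pseudocount and table symbols only. Those called lower became 3 with limma-trend on either pseudocount and 5 with the most abundant transcript, where 1 was called higher, 1 of the knocked-down genes was called, and 1132 genes were higher and 992 lower. The mitotic median was −0.24 with limma-trend on log2(TPM + 1), and the transport median was 0.12 on log2(TPM + 0.1) and −0.0647 with the most abundant transcript. Motor transcripts called went from 0 to 2 higher and 2 lower with the stricter filter and to 5 higher and 7 lower with DESeq2. The cause of these shifts was not tested.

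With libraries left out in turn, which leaves a line with 1 library assumed to vary like the other line, motors called ranged from 2 to 6 higher and from 4 to 12 lower, mitotic kinesins from 2 to 6 lower, transport kinesins from 1 to 4 higher and from 1 to 3 lower, and other kinesins from 1 to 2 higher and from 1 to 3 lower. Relatives and partners ranged from 2 to 4 higher and from 3 to 9 lower, proliferation markers from 0 to 2 higher and from 3 to 8 lower, knocked-down genes from 1 to 2 lower, and all genes from 1031 to 2363 higher and from 847 to 2141 lower. KIF21B, whose fit without PANC-1 replicate 2 is not read, enters the upper ends for motors and for other kinesins called higher. The transport median ranged from 0.000290 to 0.0639. Among these 25 genes, those that turned sign were not called in any setting: KIF15 (−0.14 to 0.37), KIF17 (−0.0369 to 0.22, the values below 0 being −0.0346 and −0.0369, and −0.27 with the most abundant transcript), KIF18B (−0.17 to 0.0313, the values above 0 being 0.0313 and 0.00440, and 0.0211 with the most abundant transcript), KIF23 (−0.0256 to 0.17) and KIF16B (0.00628 and 0.00718 with limma-trend). Outside them, the uncalled KIF6 (−0.42 to 0.61) and KIF9 (−1.02 to 0.68) also turned, as did the called partners HMMR and RHOT2, as given above.

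Libraries of the 2 lines share replicate numbers. Over genes, the difference of replicate 1 from replicate 2 in PANC-1 correlated with that in PZT-2 at −0.02, so the numbers were not taken as pairs. With the replicate block, motors were called 3 higher and 8 lower, mitotic kinesins 4 lower, transport kinesins 2 higher and 3 lower, relatives and partners 2 higher, and all genes 1979 higher and 1760 lower.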

Other observations

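Some kinesin transcripts carry no symbol in the authors' table and were named only through RefSeq. KIF27, a relative of KIF7 in cilia, had 54.0 and 45.2 normalized counts in PANC-1 and 47.3 and 45.5 in PZT-2, with overlapping libraries (log2 fold change −0.09, adjusted p = 0.812 by edgeR). The antisense RNA KIF23-AS1 had 10.1 and 17.2 against 12.1 and 27.7, also overlapping (0.52, adjusted p = 0.517).

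KIF17 showed a shift between transcripts at an overlapping gene total. NM_020816 had about 0 and 5.24 counts in PANC-1 and 33.4 and 50.005 in PZT-2, while NM_001287212 had 9.08 and 38.7 in PANC-1 and was estimated at 0 in both PZT-2 libraries. By edgeR's quasi-likelihood test neither was called (adjusted p = 0.325 and 0.169), and by DESeq2 both were (adjusted p = 0.0347 and 0.0178). The other transcript, NM_001122819, had 74.9 and 44.0 against 50.6 and 52.0 counts. The division of reads among transcripts is kallisto's estimate, and its part in this shift was not tested.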
